A study of Saccharomyces cerevisiae with 54 samples.

Results

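The subject of this report is the chromatin binding that remained in *S. cerevisiae* when the histone deacetylase Hda1 lacked its Arb2 domain. Members are regions with an anti-c-Myc peak in both libraries of Hda1(arb2{delta})-18myc cells (strain YTK383) and no peak in either library of Untag cells (strain YTK304), in the set whose titles carry no spike-in. The strain YTK383 is called the mutant below. Of 379 regions shared by both mutant libraries, 337 met this rule, and 42 were set aside because an untagged peak overlapped them by at least 1 bp. The study mapped myc-tagged Hda1 and acetylated H3 and H4 by ChIP-seq in cells grown in YPD at 30 °C. Of its 54 samples, 30 have a peak list. Hda1(arb2{delta})-18myc carries 18 myc copies at the C terminus of Hda1, with the Arb2 domain deleted at the genomic locus. Hda1-18myc (strain YTK376) is the full-length protein with the same tag, and the untagged strain has an intact, untagged *HDA1*. Each of these strains has 2 anti-myc libraries whose titles carry no spike-in and 2 whose titles do, with *S. pombe* chromatin. By the paper's methods every ChIP-seq except that of acetylated H3 had the spike-in, so "without spike-in" below describes the titles only. Acetylation was measured in 2 libraries per set in the wild type (strain YSB787), in hda1-/- cells (strain YTK113, written *hda1∆* below) and in tup1-/- cells (strain YTK202, written *tup1∆*), none of which is labelled as tagged. The paper speaks of a pair of independent ChIP-seq experiments, and the labels do not say whether the 2 libraries of a group came from separate cultures, so the spread between them may be technical. A peak list cannot show the deletion itself, and none of the 12 anti-myc lists held a peak at *HDA1*.

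Hda1 is the catalytic subunit of the Hda1 complex, in which Hda2 and Hda3 are its partners, and it removes acetyl groups from histone tails. The Arb2 domain follows the catalytic domain and can contact nucleosomes. tRNA genes are short and are transcribed at high rates by RNA polymerase III, which is recruited by TFIIIC bound to promoter elements inside the gene and by TFIIIB bound just upstream. Most snoRNAs, which guide modification and processing of ribosomal RNA, and all mRNAs are made by RNA polymerase II.

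The peak lists hold no read counts, so library depth is unknown and no counting interval was given. Without spike-in, the mutant libraries had 573 and 390 peaks, the untagged libraries 40 and 30, and the Hda1-18myc libraries 862 and 846. In the spike-in set the mutant libraries had 628 and 59 peaks and the untagged libraries 235 and 10. The second mutant and the first untagged spike-in library thus stood apart from their partners. All values below are from the set without spike-in unless the spike-in set is named.

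In the set without spike-in, tRNA genes were the gene type most often bound without the Arb2 domain. Peaks of the mutant touched 96.7% of the 275 tRNA genes in replicate 1 and 67.6% in replicate 2, against 0% in both untagged libraries. snoRNA genes were touched in 82.9% and 46.1% of 76 cases, against 13.2% and 10.5% in the untagged libraries. Coding genes were touched in 6.58% and 3.78% of 6002 cases, against 0.583% and 0.467%. In each of the 3 gene types both mutant libraries lay above both untagged libraries, and replicate 1 of the mutant lay above replicate 2. With spike-in, the first mutant library kept the order, with 84.7% of tRNA and 78.9% of snoRNA genes, and the second, with 59 peaks, turned it round, with 1.82% of tRNA and 21.1% of snoRNA genes.

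The mean difference between mutant and untagged was 82.2 percentage points for tRNA genes, 52.6 for snoRNA genes and 4.66 for coding genes. With 2 libraries against 2, an exact two-sided permutation test over libraries cannot give a p below 0.33, and gave 0.33 for each type. Over both sets, with libraries permuted within their set, the exact permutation p was 0.056 for tRNA genes (0.083 after Benjamini-Hochberg adjustment over 6 comparisons), the smallest this design allows. It was 0.11 for snoRNA and for coding genes (0.11 adjusted for both). None of these differences passed 0.05. The test took all peaks of each library, but the libraries without spike-in are those that defined the members. It is therefore no independent support for them.

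**Figure D1:**
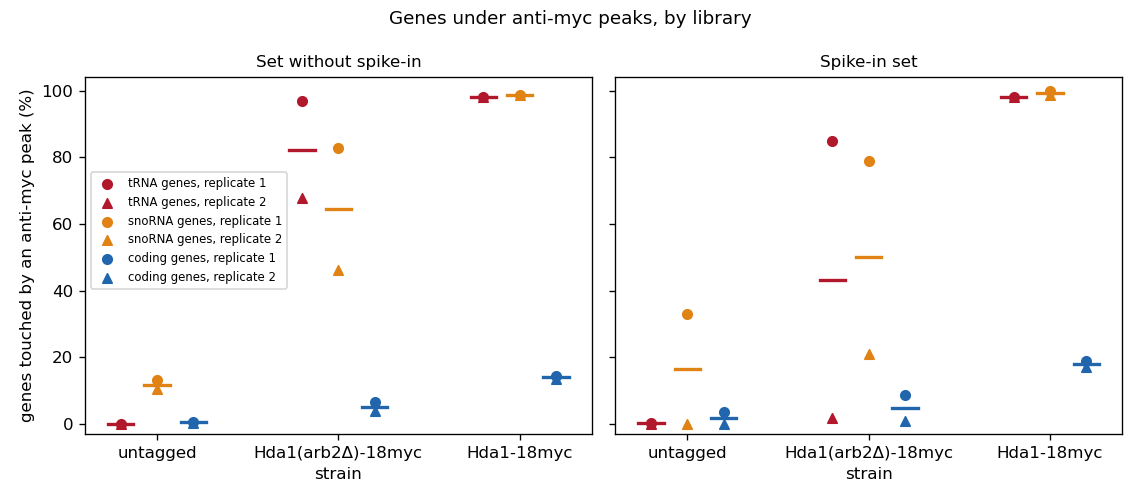
Percent of tRNA, snoRNA and coding genes touched by at least 1 bp of an anti-myc peak (y axis) in each of 12 libraries, by strain (x axis), for the set without spike-in (left) and the spike-in set (right). Circles are replicate 1, triangles replicate 2 and horizontal lines the mean of the 2. Without spike-in, tRNA genes lay at 96.7% and 67.6% in the mutant and 0% in both untagged libraries, while the second spike-in mutant library reached 1.82%, below its 21.1% of snoRNA genes.

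By the genes they touched, the 337 regions fell into 179 with a tRNA gene (53.1%), 20 with a snoRNA but no tRNA gene (5.93%), 130 with coding genes only among these 3 types (38.6%), 3 with another RNA gene and 5 with no gene. Counted by gene, they touched 185 of 275 tRNA genes (67.3%), 26 of 76 snoRNA genes (34.2%) and 231 of 6002 coding genes (3.85%), where the background over all 6431 nuclear genes was 6.95%. A tRNA gene was therefore touched far more often, and a coding gene less often, than the average nuclear gene. Of the tRNA regions, 133 touched nothing but tRNA genes and 44 also touched a coding gene. Both mutant libraries entered these counts. With replicate 1 alone there were 530 regions and 48 snoRNA genes, and with replicate 2 alone 348 and 21. The 337 regions covered 249609 bp in all. tRNA regions were narrow, with a median width of 441 bp, and coding and snoRNA regions wider, at 946 and 954 bp.

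The fold enrichment of a peak is the ratio of its pileup to the control of its own library, so folds were ranked within a library and set side by side across libraries without a test. In the mutant, median fold at tRNA regions was 2.24 in replicate 1 and 1.68 in replicate 2. Medians at snoRNA regions were 1.94 and 1.52, and at coding regions 1.75 and 1.46. The order tRNA, snoRNA, coding was the same in both libraries, although the ranges of the classes overlapped. In the first mutant spike-in library, which had a peak at 322 of the regions, snoRNA regions had the highest median of the 3, at 1.96, followed by tRNA regions at 1.85 and coding regions at 1.78. Of the 50 regions with the highest mean rank, 41 were tRNA regions, 4 coding and 1 snoRNA. The rule shaped this count and the medians. It set aside 31 coding, 7 snoRNA and 1 tRNA region for an untagged peak, and these included some of the strongest of the mutant. Replicate 1 gave the higher fold at 336 of 337 regions.

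**Figure D2:**
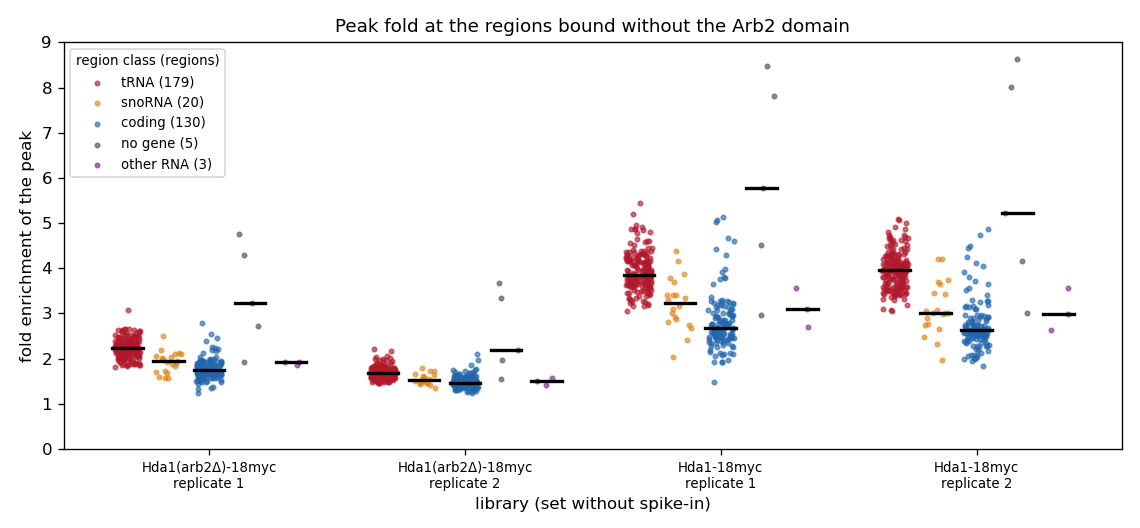
Fold enrichment of the peak (y axis, linear) at the regions bound without the Arb2 domain, in the 2 mutant and 2 Hda1-18myc libraries (x axis), coloured by region class. Each point is 1 region and black lines are medians. At tRNA regions the medians were 2.24 and 1.68 in the mutant and 3.86 and 3.96 in Hda1-18myc, and a pair of regions with no gene stood highest in all 4 libraries.

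The highest tRNA region held YNCB0004W and YNCB0005C, on chromosome II from 197294 to 197910 (R64 build), with a fold of 3.09 in mutant replicate 1 and 2.21 in replicate 2. Next came the region of YNCG0028W and YNCG0029C on chromosome VII (2.62 and 2.18). It was followed by *SUP17* on chromosome IX (2.64 and 1.95), YNCL0033C on chromosome XII (2.56 and 1.99) and YNCP0009W on chromosome XVI (2.59 and 1.96). The 2 highest tRNA regions each held 2 tRNA genes, as did 6 of the 179, while 173 held 1. At none of these 5 did an untagged library of the spike-in set, which the rule did not use, have a peak.

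Peak summits lay on the tRNA genes themselves. Over the 173 regions with 1 tRNA gene, the median summit was 14.5 bp upstream of the gene centre in replicate 1 (quartiles −28 and 0.5 bp) and 10.5 bp upstream in replicate 2 (−30 and 10.5 bp). It was inside the gene in 152 and 150 regions, and within 100 bp of its centre in 173 and 172. The exception was YNCE0005W in replicate 2, whose region also covers the translation factor gene *HYP2* and where the strongest summit was 596 bp upstream of the centre.

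**Figure D3:**
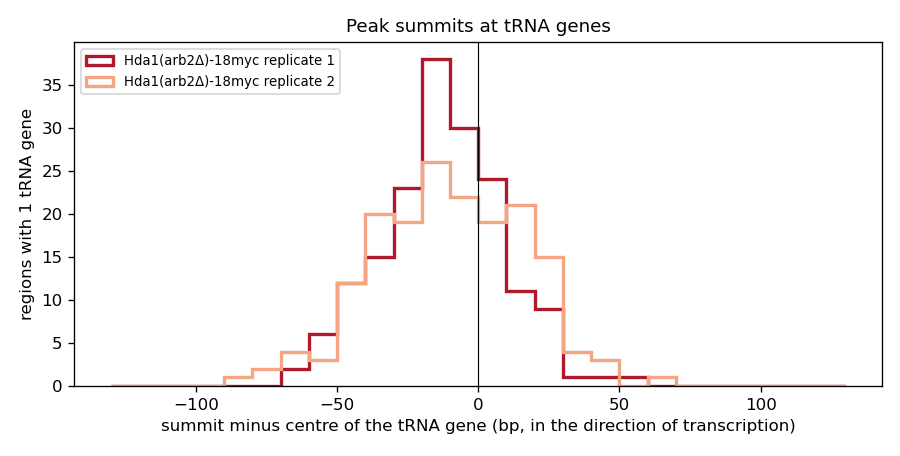
Position of the peak summit relative to the centre of the tRNA gene (x axis, bp, positive in the direction of transcription) for the 173 regions with 1 tRNA gene, as the number of regions per 10 bp bin (y axis), in each mutant library. The medians were −14.5 and −10.5 bp, and the replicate 2 summit at YNCE0005W, at −596 bp, is outside the plotted range.

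The 90 other tRNA genes were mostly a matter of replicate 2. Of these, 80 had a peak in mutant replicate 1 only, 9 had none in either mutant library and 1, next to *GCN4*, was set aside with its region because an untagged peak overlapped the region. All 185 tRNA genes of the residual regions, and 85 of the 90 others, had a peak in both Hda1-18myc libraries. By chromosome the bound share ran from 47.6% of 21 genes on XII to 100% of 10 genes on VI. Of the 53 tRNA genes of at least 90 bp, 42 were bound, and of the 222 shorter ones 143.

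Ribosomal protein genes made up most of the coding regions. A residual region touched 93 of the 137 ribosomal protein genes (67.9%) against 3.85% of all coding genes, and 84 of the 130 coding regions (64.6%) held one. By library, mutant peaks touched 98.5% and 76.6% of these genes, and untagged peaks 8.03% and 6.57%. In the spike-in set the first untagged library touched 67.2% and the second 0.73%, and the part of this signal in the ribosomal protein regions was not tested. The highest coding region held *RPL10*, a protein of the large subunit, with folds of 2.79 and 2.099. *RPS31*, which encodes a ribosomal protein fused to ubiquitin (2.54 and 1.98), and *RPS3*, of the small subunit (2.39 and 1.74), followed. All 3 regions also had a peak in the first untagged spike-in library, with folds of 1.57, 1.42 and 1.61. Ribosomal protein genes often come as near-identical pairs, and so do the histone, *EFT* and *TEF* genes named below. How reads shared by copies were placed is not given in the sources used here.

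Histone genes were bound to a like extent, with 7 of 10 touched. They were led by *HHF2*, one of the genes for histone H4, where the folds were 1.88 and 1.66. *HTA1*, for histone H2A, had 1.97 and 1.56, and *HTB2*, for H2B, 1.94 and 1.42. None of these 3 had a peak in an untagged spike-in library.

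Other highly expressed groups were touched in part. Of 16 chaperone genes 4 were touched, among them *SSA2* and *SSB1* of the Hsp70 family and *HSC82*, an Hsp90 gene. Of 19 glycolysis and fermentation genes 4 were touched, among them *GPM1*, *TPI1* and *TDH2*, and 7 more lay in regions set aside for an untagged peak. Of 20 cell wall and plasma membrane genes 4 were touched, including *UTH1*, *HSP150* and *GAS1*, which encodes a glucan-remodelling enzyme. Translation factors counted 4 of 21, where *EFT2* stood in a coding region, *HYP2* in a tRNA region and *TEF4* in a region that also held the snoRNA gene *SNR38*. In these 4 groups the shares ran from 19% to 25%, above the 3.85% of all coding genes. At *SSA2* the folds were 1.93 and 1.60, at *GPM1* 1.90 and 1.65 and at *UTH1* 2.04 and 1.50. Each of these 3 also had a peak in the first untagged spike-in library (1.87, 1.43 and 1.43).

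Groups of genes with regulated expression were touched in shares around that of all coding genes. None of 25 glucose-repressed genes was, and 1 of 30 Tup1-repressed genes, *CYC7*, which lay under the replicate 1 peak (1.54) but not under that of replicate 2. Of 15 hexose transporter genes *HXT1*, a low-affinity transporter used when glucose is high, was touched (1.44 and 1.29). Of 60 meiosis genes 2 were touched, *SPO13* and the regulator *NDT80*, both in regions that also held a tRNA gene. These shares ran from 0% to 6.67%, beside 3.85% of all coding genes, and are not a result about these groups.

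Within coding regions the summits lay towards the 3′ end. They fell inside a coding sequence in 115 of 130 regions in each library, at a median of 74.3% of the way from start to stop codon in replicate 1 and 77.7% in replicate 2. With each coding sequence cut into 3 equal parts from the start, 10, 33 and 72 summits fell into them in replicate 1 and 6, 33 and 76 in replicate 2. For the 393 coding regions of Hda1-18myc the medians were 64.05% and 65.4%. The difference between the proteins was not tested, because the residual regions are largely a subset of the others.

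Among snoRNA genes the highest region without a tRNA gene held *SNR52*, with folds of 2.50 and 1.73. *SNR52* is the one snoRNA gene of budding yeast that RNA polymerase III transcribes. *SNR67* and *SNR53* lay in a region with a tRNA gene, under peaks of 2.67 and 1.77. *SNR30*, needed for processing of 18S rRNA, had folds of 2.09 and 1.71. The guide snoRNA genes *SNR63* (1.93 and 1.80), *SNR37* (2.19 and 1.60) and *SNR10* (2.13 and 1.61) came next. Of the 20 snoRNA regions 17 also touched a coding gene, and 4 of the 26 bound snoRNA genes lie inside one, so peaks of the RNA gene and of its neighbour cannot be told apart there. Another 15 snoRNA genes lay in regions set aside for an untagged peak.

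The other genes made by RNA polymerase III were bound in part. *SNR6*, for U6 RNA, had folds of 1.93 and 1.56, and *RPR1*, for the RNA of RNase P, 1.93 and 1.51. Neither had a peak in an untagged spike-in library. In the mutant spike-in libraries, however, *SNR6* had no peak, and *RPR1* had one in the first only (1.51). *SCR1*, for the RNA of the signal recognition particle, was higher in the mutant (3.15 and 2.23) but was set aside because both untagged libraries had a peak (1.47 and 1.51). The 5S rRNA genes *RDN5-1* and *RDN5-2*, near-identical copies, also lay in a region set aside. *RDN5-4* had a peak in mutant replicate 1 only (1.75), and *RDN5-3*, *RDN5-5*, *RDN5-6* and *RNA170* had none in either mutant library.

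The highest folds of all were at chromosome ends. A region on chromosome III from 27 to 533, beyond the outermost gene, ranked 1 in both mutant libraries with folds of 4.77 and 3.68. A region on chromosome XIV from 783873 to 784318, also beyond the outermost gene, ranked 2 in both with 4.30 and 3.35. In Hda1-18myc the same regions had folds of 7.82 and 8.01, and of 8.48 and 8.64. In the spike-in set they were lower, at 2.19 and 1.91 in the first mutant library, and had no peak in the second. Hda1-18myc folds were lower in that set too, at 2.71 and 3.17 on III and at 2.76 and 2.95 on XIV. No untagged spike-in library had a peak at either region. The other regions without a gene were on chromosome XII from 11038 to 11500 (3.23 and 2.19), on VIII from 556676 to 557176 (2.72 and 1.96) and on XIII from 267883 to 268271 (1.92 and 1.55).

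The 42 regions set aside included some of the strongest of the mutant. The region of *TDH3*, a glycolytic enzyme, had folds of 3.54 and 2.66 in the mutant and 1.76 and 1.77 in the untagged libraries. *PMA1*, the plasma membrane proton pump, had 3.28 and 2.54 against 1.69 and 1.61. *SNR17A*, the U3 snoRNA, had 3.27 and 2.24 against 1.65 and 1.54, and *ADH1*, alcohol dehydrogenase, 2.99 and 2.30 against 1.54 and 1.51. A region with no gene on chromosome VIII, from 562225 to 562616, had 3.68 and 2.59 against 1.39 and 1.47. In these 5 regions both mutant folds were above both untagged folds, although each is relative to its own control. By class, 31 of the 42 were coding, 7 snoRNA and 1 tRNA. The rule thus removed strongly bound coding and snoRNA genes and hardly any tRNA gene. Among the members, 4 lay within 1000 bp of an untagged peak, the nearest being YNCE0025C at 721 bp.

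Nearly every residual region was also bound by the full-length protein. A peak was present in both Hda1-18myc libraries at 334 of 337 regions (99.1%), and at these 334 both Hda1-18myc folds were above both mutant folds. The paper reports a partly lower Hda1 protein level without the Arb2 domain, and the part of this in the lower folds was not tested. The median ratio of Hda1-18myc to mutant fold over the 4 pairs of libraries ran from 1.74 to 2.34 at tRNA regions and from 1.53 to 1.85 at coding regions. These ratios rest on the mutant peaks that the rule used. Hda1-18myc regions with no mutant peak, 195 of 393 coding and 3 of 261 tRNA regions, are not in them. They therefore cannot show which class lost more binding. Across these 334 regions the folds of the 2 mutant libraries had a Spearman correlation of 0.85, those of mutant and Hda1-18myc of 0.79 to 0.89, and those of the 2 Hda1-18myc libraries of 0.97. The points share libraries and peak calling, and these values are a description. The 3 exceptions were *YHL050C* near an end of chromosome VIII (1.69 and 1.61), *YFL067W* near an end of VI (1.35 and 1.47) and *YDR365W-B*, a Ty element gene (1.25 and 1.25). *YDR365W-B* had the lowest mean rank of all members, preceded by *RPS10B* (1.33 and 1.29) and *NOP1*, which encodes the box C/D snoRNA methyltransferase (1.37 and 1.30).

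Seen from the full-length protein, peaks in the mutant were spread unevenly over the classes. Hda1-18myc had 737 regions in both libraries with no untagged peak, and 327 of them (44.4%) had a peak in both mutant libraries. The share was 178 of 261 for tRNA regions (68.2%), 20 of 49 for snoRNA regions (40.8%), 126 of 393 for coding regions (32.1%) and 3 of 29 for regions with no gene (10.3%). In mutant replicate 1 alone the shares were 98.9% for tRNA, 81.6% for snoRNA and 50.4% for coding regions. No mutant peak at all was found at 195 coding regions (49.6%) and at 3 tRNA regions (1.15%).

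The order of the classes turned round within groups of regions made by height in Hda1-18myc. In the 25% of regions with the highest Hda1-18myc fold, 138 of 164 tRNA regions (84.1%) and all 11 coding regions were kept in both mutant libraries. In the next 25% the counts were 40 of 95 tRNA regions (42.1%) and 52 of 64 coding regions (81.2%). In the 25% below, 63 of 149 coding regions (42.3%) were kept and neither of 2 tRNA regions. In the lowest 25%, 0 of 169 coding regions were kept. The higher share of tRNA regions over all heights thus went with their higher folds in Hda1-18myc. Within each group that held both classes a coding region was kept more often, although the groups are broad and folds were not matched inside them. Coding regions were also the wider ones (median 946 bp against 441 bp among the residual regions), and the part of width in this was not tested. The first untagged spike-in library had a peak at 83 of 130 coding and 4 of 179 tRNA residual regions. The part of such untagged signal was not tested either.

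**Figure D4:**
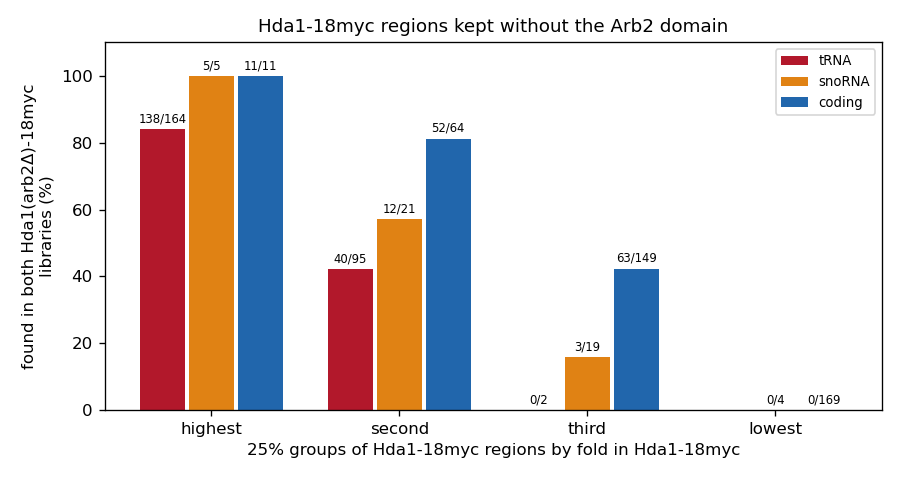
Percent of Hda1-18myc regions with a peak in both mutant libraries (y axis), for the 737 regions ordered by their fold in Hda1-18myc and split into 4 equal groups (x axis) and by region class (colours), with the counts above each bar. In the highest group 138 of 164 tRNA and 11 of 11 coding regions were kept, in the second 40 of 95 and 52 of 64, and in the lowest 0 of 169 coding regions.

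Counted by gene, the 737 Hda1-18myc regions touched 97.8% of tRNA genes, 78.9% of snoRNA genes and 12.2% of coding genes (16.8% of all nuclear genes), against 67.3%, 34.2% and 3.85% for the residual regions. Hda1-18myc peaks touched 98.2% of tRNA genes in each library, and 14.5% and 13.55% of coding genes. The full-length protein lay above the mutant by 16 percentage points for tRNA, 34.2 for snoRNA and 8.82 for coding genes. The exact permutation p was 0.33 for each type in this set, and over both sets 0.056 for each (0.083 adjusted), the smallest value possible.

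The spike-in libraries, which the rule did not use, gave divided values. The first mutant spike-in library had a peak at 322 of 337 regions (95.5%), including 168 of 179 tRNA regions and 128 of 130 coding regions. The second had a peak at 22 (6.53%), including 3 tRNA and 15 coding regions. The first untagged spike-in library had a peak at 83 of 130 coding regions (63.8%), 8 of 20 snoRNA regions and 4 of 179 tRNA regions (2.23%), and the second at none. Counting regions with a peak in the first mutant spike-in library and in neither untagged one left 164 tRNA, 12 snoRNA and 45 coding regions. Built on the spike-in set alone, the same rule gave 7 regions in place of 337. With the untagged spike-in peaks removed too, 241 of the 337 regions were left, with 181 tRNA, 114 coding and 13 snoRNA genes. Only the first untagged spike-in library bears on this contrast between tRNA and coding regions, since the rule used the untagged libraries without spike-in and the second with spike-in held 10 peaks in all.

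Acetylated H4 was next read at the mutant summits of replicate 1, as the percent lying under a peak of that mark in the wild type and in cells without *HDA1* (*hda1∆*) or *TUP1* (*tup1∆*). At the 84 coding regions with a ribosomal protein gene it was 2.38% in both wild-type libraries and 29.8% and 31.0% in *hda1∆*. In the spike-in set it was 3.57% in both wild-type libraries and 29.8% and 28.6% in *hda1∆*. In *tup1∆* it was 7.14% and 9.52%, and with spike-in 14.3% and 15.5%. The 3 strains did not overlap in either set, and *hda1∆* was highest in each. An exact permutation test of 2 libraries against 2 cannot go below 0.33. Acetylated H3 at the same regions averaged 32.1% in the wild type, 42.3% in *hda1∆* and 26.8% in *tup1∆*, against 23.6%, 28.9% and 25.9% at a point 75% along all coding genes.

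At the 20 bound snoRNA regions acetylated H4 lay at 5% in both wild-type libraries and at 15% and 30% in *hda1∆*, and with spike-in at 0% in both and at 20% and 15%. These are 0 or 1 of 20 regions in the wild type and 3 to 6 in *hda1∆*. Acetylated H3 there was 40% and 35% in both strains.

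By the percent of points under a called peak, coding genes at large did not show the rise of acetylated H4. This measure asks only whether a single point lies under a peak called per library, so it cannot show a change in signal size. The paper, by spike-in signal ratios, reports increased H4 acetylation in *hda1∆* within coding regions of more active genes. At a point 75% along all 6002 coding genes, mean coverage by acetylated H4 peaks was 30.9% in the wild type and 29.9% in *hda1∆*, and with spike-in 31.4% and 30.3%. At the 46 bound coding regions without a ribosomal protein gene the means were 19.6% and 21.7%, and with spike-in 20.7% and 25%. The bound ribosomal protein regions thus lay far below other coding genes in the wild type and level with them in *hda1∆*. Of these 84 regions, 62 had a peak in the first untagged spike-in library. At the 47 bound coding regions of any kind with no untagged spike-in peak, the means were 21.3% in the wild type and 44.7% in *hda1∆*. With spike-in they were 24.5% and 45.7%. The part of untagged signal in the low wild-type values was not tested. Ribosomal protein genes outside the residual regions moved in the same direction, from 20.5% to 43.2% at the 75% point and from 18.2% to 52.3% with spike-in, and whether the groups differed in this was not tested. At those inside, the same point went from 4.84% to 33.9% and from 3.76% to 30.1%. Over the whole span of the chromosomes, acetylated H4 peaks covered 30.2% and 30.3% in the wild type and 26.2% and 26.6% in *hda1∆*, and with spike-in 32.1% and 33.0% against 28.4% and 29.2%.

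**Figure D5:**
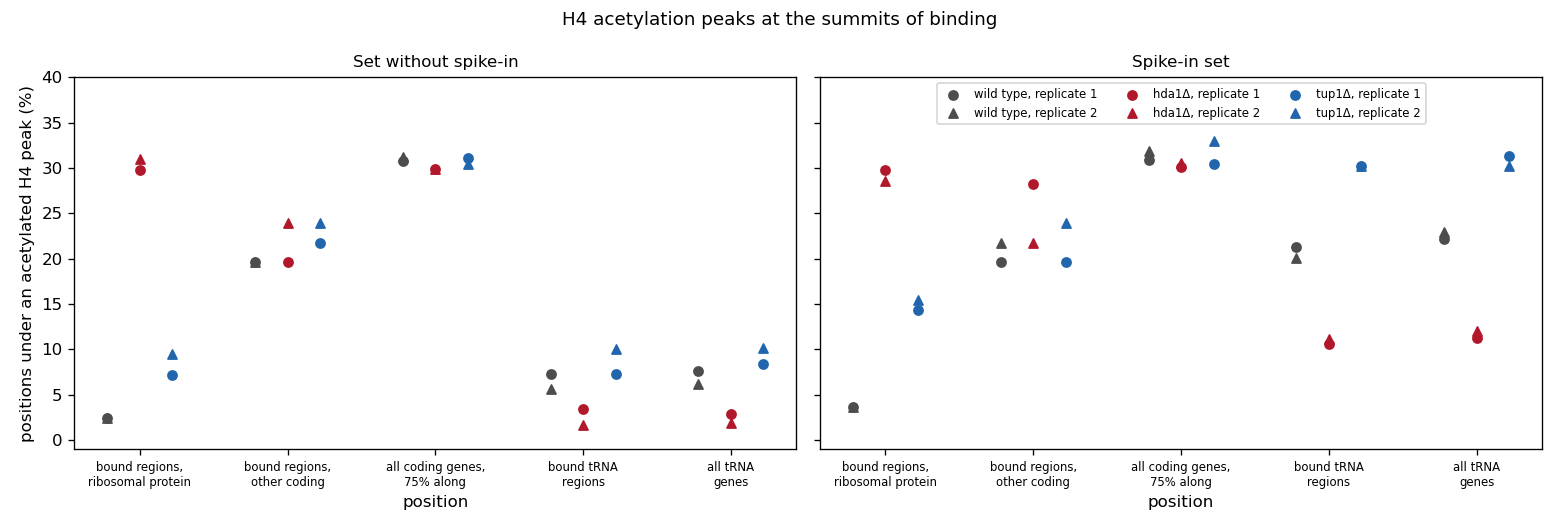
Percent of positions under a peak of acetylated H4 (y axis) in libraries of the wild type, hda1∆ and tup1∆ (colours, with circles for replicate 1 and triangles for replicate 2), for the set without spike-in (left) and the spike-in set (right). Positions (x axis) are mutant summits at bound regions with a ribosomal protein gene, at other bound coding regions and at bound tRNA regions, a point 75% along all coding genes, and the centres of all tRNA genes. Bound ribosomal protein regions lay at 2.38% in both wild-type libraries and at 29.8% and 31.0% in hda1∆ on the left, while all coding genes stayed near 30% in each strain.

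At bound tRNA regions the percent under acetylated H4 peaks was lower in *hda1∆*. It averaged 6.42% in the wild type, 2.51% in *hda1∆* and 8.66% in *tup1∆*, and with spike-in 20.7%, 10.9% and 30.2%. The centres of all 275 tRNA genes gave nearly the same values, with 6.91%, 2.36% and 9.27%, and 22.5%, 11.6% and 30.7% with spike-in. The 2 strains *hda1∆* and wild type did not overlap in either set. For acetylated H3, measured without spike-in only, the means at bound tRNA regions were 4.19% in the wild type, 11.2% in *hda1∆* and 12.01% in *tup1∆*. The centres of all tRNA genes gave 4.91%, 9.45% and 10.5%. The bound regions are part of all tRNA genes, and the 90 tRNA genes outside gave 8.33%, 2.22% and 11.1% for acetylated H4 without spike-in. For acetylated H3 those 90 gave 6.67%, 6.67% and 8.33%, with the same mean in the wild type and *hda1∆*. In counts these were 7 and 5 genes in the wild type and 6 in each *hda1∆* library. The 90 are not unbound genes, since 80 had a peak in mutant replicate 1 only and 85 in both libraries of the full-length protein. They were read at gene centres, and the bound regions at mutant summits. Whether bound and other tRNA genes differed in the change of either mark was not tested. At the 5 regions with no gene there was no acetylated H4 peak in any library.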

How the data were processed

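Peaks of 30 immunoprecipitated libraries were analysed, 12 of them anti-myc. Input and total H3 libraries were not analysed here. The submitters' processing notes name FastQC 0.11.5, Bowtie2 2.2.5, Picard 2.6, bedtools 2.26.0, MACS2 2.1.0 and the R64 build, whereas the paper writes R61-1-1 for the alignment. The authors called peaks per library with MACS2 at a q of 0.05. The control used for the anti-myc calls is not given in the sources used here, and for acetylation the paper names H3. The deposited fold enrichment is a ratio to that control and was used for ranks and medians. The deposited −log10 q-value was used for 1 stricter threshold, while the score and the −log10 p-value deposited beside it entered no value.

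Genes came from the RefSeq table of R64, with 6002 nuclear coding, 275 tRNA and 76 snoRNA genes. Coding genes run from start to stop codon. Median summits lay −31.25 to −5.25 bp from tRNA gene centres on each of 16 chromosomes, so table and peaks share coordinates. Overlapping mutant peaks (at least 1 bp) were joined into regions with Python 3.11.15, numpy 2.4.6 and pandas 2.3.3, and the overlap code was tested on simulated data. Regions were classed in the order tRNA, snoRNA, coding, other RNA. Exact two-sided permutation tests ran over libraries. The named genes were 11 of those the study names, the highest and lowest regions by mean rank, overall and by class, regions without an Hda1-18myc peak, the 5 highest set aside, the 3 highest per gene list and all other RNA polymerase III genes. Gene lists were written from general knowledge of yeast, and members and lists were chosen with earlier results of these data known. Alternatives were other overlaps and thresholds, treatments of untagged peaks, a table moved by 200 bp, single libraries left out and the replicate number as a block.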

Additional observations from a re-analysis of the deposited data

How the results depend on the processing

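Of 115 alternative values of 9 results, 93 stayed within the limit set for them and 22 did not. The limit was 1.5 times for a count, the binomial interval for a percent and the same sign for a difference. None reversed. The binomial interval took the 337 regions as independent although they share libraries, so it does not measure the spread between libraries. The same sign is a loose limit, so these counts are a description only. Leaving out 1 library at a time moved the 337 regions to between 342 (without untagged replicate 2) and 530 (without mutant replicate 2). The ranges were 181 to 338 for coding, 185 to 265 for tRNA and 21 to 48 for snoRNA genes, where the highest value of each was without mutant replicate 2. They were 96.8% to 99.1% for regions with both Hda1-18myc peaks and 4.53% to 7.43% for regions with both spike-in mutant peaks. For the difference between mutant and untagged they were 3.26 to 6.06 points for coding, 67.6 to 96.7 for tRNA and 34.2 to 71.1 for snoRNA genes.

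Removing untagged spike-in peaks too left 241 regions, 114 coding and 13 snoRNA genes, 181 tRNA genes, and 2.07% of regions with both spike-in mutant peaks. With no untagged peaks removed, snoRNA genes numbered 41 and that percent was 13.46. Equal numbers of peaks gave 145 coding genes and 100% of regions with both Hda1-18myc peaks. Genes holding a summit numbered 144 coding and 8 snoRNA, against 175 tRNA genes, and genes widened by 200 bp numbered 372 coding. The spike-in set, chosen after seeing the data, gave 7 regions, 7 coding, 3 tRNA and 2 snoRNA genes and 100% with both Hda1-18myc peaks. Without its second mutant and first untagged library it gave 623 regions, 524 coding, 233 tRNA and 60 snoRNA genes and 91.8%. The cause of these shifts was not tested.

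With the replicate number as a block, each mutant library was set against the untagged library of its number, which again gave 337 regions, 231 coding, 185 tRNA and 26 snoRNA genes, 99.1% and 6.53%, and differences of 4.66, 82.2 and 52.6 points. Over 6431 genes, differences between replicates 1 and 2 of mutant and untagged correlated at 0.0065. Untagged peaks touched only 35 and 28 coding genes and no tRNA gene. This value therefore cannot show whether libraries of the same number share more than that number. Unknown depth limits any statement on a missing peak.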

Other observations

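Of 11 genes taken from those the study names, none lay in a residual region. *TEF1* and *TEF2*, which encode the same elongation factor, the elongation factor gene *YEF3* and *PMA1* lay in regions set aside for an untagged peak. At *YEF3* the folds were 2.21 and 1.80 in the mutant and 1.34 in the first untagged library, with no peak in the second. *HAP1*, a haem-responsive activator, had a peak in the first mutant library only (1.50) and in both Hda1-18myc libraries (2.35 and 2.32). *TKL1*, a transketolase, had peaks in Hda1-18myc only (1.71 in each library). *GAL1*, *GAL3*, *TKL2*, *STT4* and *HDA1* had no anti-myc peak in any library.

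Of the 9 tRNA genes with no peak in either mutant library, 5 had none in the Hda1-18myc libraries either. These 5, chosen after their values were seen, were *SUP53*, YNCC0008W and YNCC0009C on chromosome III, YNCL0009C on XII and YNCN0008C on XIV. The other 4 were YNCI0003C, YNCL0038W, *TRR4* and YNCN0006W.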
